A study of Homo sapiens with 6 samples.

Results

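The MYC and MAX network is the set of transcription factor genes that pair with MAX or with its relative MLX. The 10 genes followed here were MYC, MAX, MXD1, MXD3, MXD4, MXI1, MNT, MGA, MLX and MLXIP. They were chosen by symbol, and each symbol was found, so the network made up 10 of the 20348 genes in the deposited table. The deposited table assigned 9 of the 10 to the bHLH class of factors and MGA to the T-box class. RNA-seq was made from MV4-11 cells, an established human acute myeloid leukemia (AML) line with a KMT2A fusion and an internal tandem duplication in FLT3. There were 3 Control samples, which the labels call untreated, and 3 samples treated with 1 μM WNK463, an inhibitor of the WNK kinases, for 48 h. Whether the Control cells received the solvent of the compound is not given in the sources used here. The comparison asked how the transcriptome of AML cells differed after WNK inhibition.

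As background, MYC binds DNA only as a pair with MAX, at the E-box sequence CACGTG, and recruits coactivators that open chromatin and drive growth genes. The MXD proteins, MNT and MGA compete with MYC for MAX and occupy the same sites with corepressors. The MXD genes other than MXD3 usually rise as myeloid cells leave the cell cycle and mature. MLX is a further hub and pairs with MLXIP, a glucose sensor also called MondoA, and with MXD1, MXD4 and MNT.

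The total count of a sample was 14915745 to 17411780, and the edgeR filter on low counts left 11973 genes, all 10 network genes among them. Levels are given as CPM, which are counts per 1000000 of the TMM-normalized library, and as the deposited TPM where genes are compared with each other, since TPM takes account of transcript length. The labels do not state that the samples of a group came from separate cultures, so p-values measure only the spread between these samples, which may be technical. The 3 WNK463 libraries had TMM factors above 1 and the 3 Control libraries below 1. With total counts as the scaling, the median change over the tested genes was 0.15 higher on the log2 scale. The leukemia identity list of 7 genes was detected in full, including FLT3, CD33 and SPI1, whereas 8 markers of other lineages summed to at most 0.366 CPM in any Control sample and 1.15 CPM in any WNK463 sample, with CD3D, MS4A1, EPCAM and COL1A2 at 0 counts in all 6 samples.

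With edgeR's quasi-likelihood test, 6 of the 10 network genes differed between the groups at an adjusted p below 0.05, where 70.8% of all tested genes did. MXD1, MAX and MXD4 rose, and MYC, MLX and MLXIP fell. By direction this was 3 of 10 higher and 3 of 10 lower, beside 35.5% and 35.3% of all tested genes. This tally depended on the scaling. With total counts 6 network genes were higher and 1 lower, with limma on log2(TPM + 1) 4 were higher and 0 lower, and with upper-quartile factors 6 were higher and 3 lower, while total counts moved the share of higher genes among all calls from 50.2% to 63.9%. MXD1 alone also passed a limit of 1 on the absolute log2 fold change, as did 15.2% of all tested genes, 9.62% higher and 5.55% lower. In 7 of the 10 genes the values of the groups did not overlap, against 73.5% of all tested genes. In this fit 60% of the network genes passed beside 70.8% of all tested genes, and with upper-quartile factors 9 of 10 passed beside 71.4%. With 10 genes these shares do not set the network apart from all tested genes. The median log2 fold change was 0.10 in the network and 0.02 over all tested genes.

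**Figure D1:**
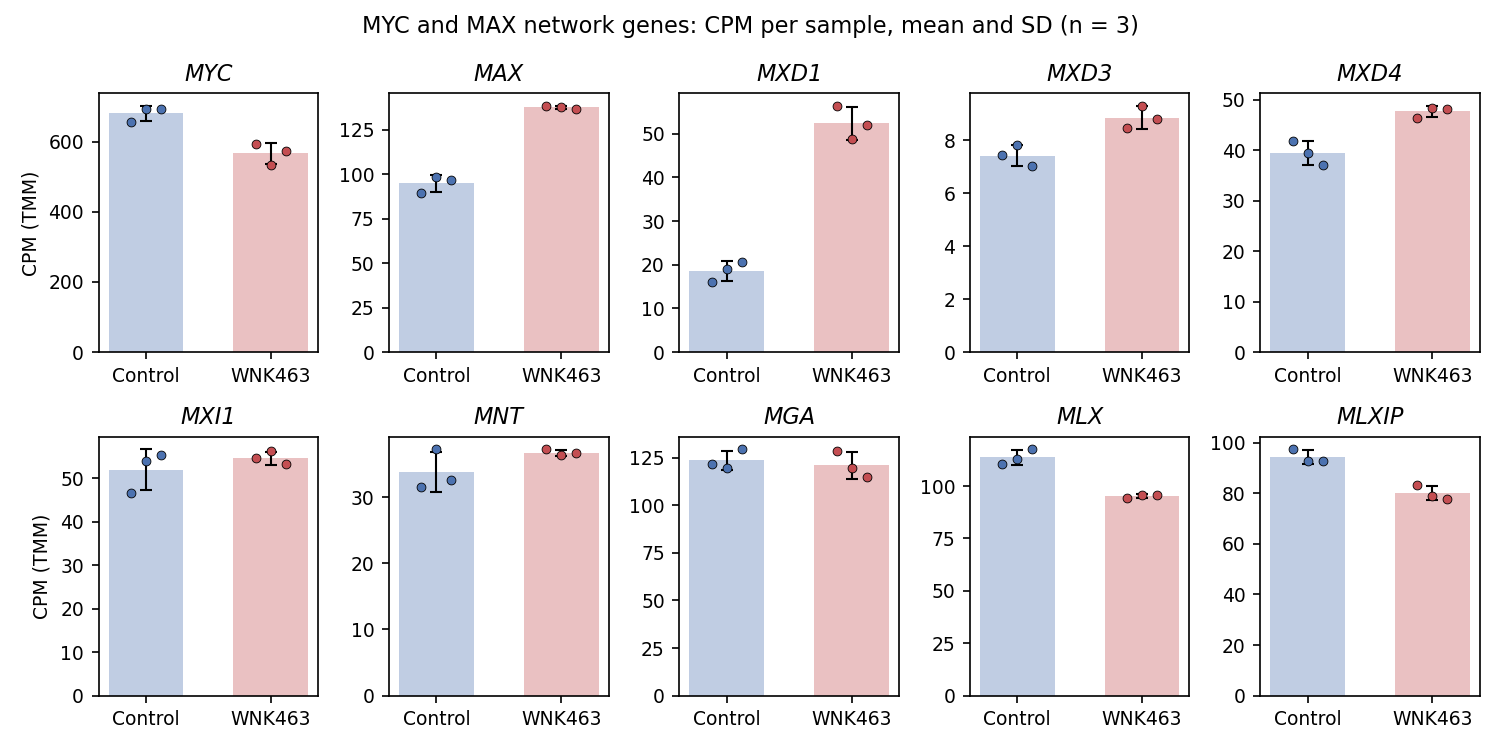
CPM (TMM-normalized, vertical axes from 0) of the 10 network genes in 3 Control and 3 WNK463 samples. Points are samples, bars are means and error bars are SD. MXD1 and MAX were higher in every WNK463 sample, and MYC, MLX and MLXIP were lower in every one, while the values of MXI1, MNT and MGA overlapped.

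MYC, the activator at the centre of the network, was the most abundant of its transcripts and fell by a small amount. MYC (ENSG00000136997, chromosome 8 from 127735434 to 127741434, plus strand, GRCh38 with GENCODE 29) was measured at 656, 692 and 693 CPM in the Control samples and at 592, 534 and 573 CPM in the WNK463 samples. All 3 treated samples lay below all 3 Control samples. The mean was 680.3 ± 21.4 CPM in Control and 566 ± 29.4 CPM with WNK463 (SD, n = 3 each), with a log2 fold change of -0.26 (standard error 0.05, adjusted p = 8.4e-05, edgeR). In bulk RNA a smaller number of cells that carry a transcript and less of it per cell cannot be told apart. The fall depended on the scaling, being -0.11 with total counts (adjusted p = 0.033, edgeR) and -0.06 on log2(TPM + 1), where it did not pass (adjusted p = 0.29, limma). A larger absolute change than that of MYC was found in 65.0% of the tested genes. With 3 samples in each group the smallest p of an exact permutation test is 0.10, which was reached for each of the 7 network genes whose groups did not overlap.

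The genes whose pattern over the 6 samples came nearest to that of MYC were SPECC1L, SRSF4 and SIN3A. Likeness was the root mean square difference of centred log2 CPM, which was 0.0136 for SPECC1L, 0.0178 for SRSF4 and 0.0219 for SIN3A among 9012 genes with a mean of at least 10 CPM. Such a pattern was common, as 1342 of these genes lay within 0.10 of MYC.

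MAX, the shared partner, rose while MYC fell. MAX (ENSG00000125952, chromosome 14 from 65006174 to 65102695, minus strand) was at 89.3, 98.4 and 97.0 CPM in Control and at 138, 138 and 137 CPM with WNK463. The treated samples were nearly equal to each other and well above the Control samples. Its mean went from 94.9 ± 4.87 to 138 ± 0.937 CPM (SD, n = 3 each), with a log2 fold change of 0.54 (standard error 0.05, adjusted p = 5.7e-08, edgeR). This rise passed the test with each scaling, tool and filter that was tried, with log2 fold changes from 0.52 to 0.69.

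Among the MXD repressors, MXD1 changed most. MXD1 (ENSG00000059728, chromosome 2 from 69897688 to 69942945, plus strand), also called MAD1, is induced when myeloid cells differentiate. It was at 16.1, 18.9 and 20.6 CPM in Control and at 56.4, 48.8 and 51.9 CPM with WNK463. The lowest treated sample lay far above the highest Control sample. Its mean rose from 18.5 ± 2.27 to 52.4 ± 3.81 CPM (SD, n = 3 each), which is 2.83-fold, with a log2 fold change of 1.5 (standard error 0.09, adjusted p = 7.2e-11, edgeR). Only 6.99% of the tested genes had a larger absolute change.

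The other MXD genes moved little. MXD4 (ENSG00000123933, chromosome 4 from 2247432 to 2262294, minus strand) was at 41.7, 39.4 and 37.1 CPM in Control and at 46.4, 48.4 and 48.2 CPM with WNK463. The groups did not overlap, and MXD4 rose with a log2 fold change of 0.27 (standard error 0.07, adjusted p = 0.0013, edgeR). MXD3 (ENSG00000213347, chromosome 5 from 177301461 to 177312757, minus strand), a family member linked to proliferating cells, was the least abundant in CPM, with 7.43, 7.82 and 7.01 in Control and 8.45, 9.30 and 8.81 with WNK463. Its values did not overlap either, but the log2 fold change of 0.26 did not pass (95% interval -0.02 to 0.53, adjusted p = 0.085, edgeR), although it passed with total counts at 0.41 (adjusted p = 0.0093, edgeR). MXI1 (ENSG00000119950, chromosome 10 from 110207605 to 110287365, plus strand), also called MXD2, was at 46.6, 54.0 and 55.4 CPM in Control and at 54.6, 56.2 and 53.2 CPM with WNK463. The MXI1 groups overlapped, with a log2 fold change of 0.07 that did not pass (95% interval -0.07 to 0.22, adjusted p = 0.35, edgeR), whereas with total counts it was 0.23 and passed (adjusted p = 0.0097, edgeR).

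MNT and MGA, the larger MAX partners that repress, overlapped between the groups. MNT (ENSG00000070444, chromosome 17 from 2384060 to 2401118, minus strand), which limits MYC in cycling and resting cells alike, was at 31.5, 37.2 and 32.6 CPM in Control and at 37.2, 36.3 and 36.6 CPM with WNK463. Control replicate 2 stood as high as the treated samples. The log2 fold change of MNT was 0.12 (95% interval -0.04 to 0.28, adjusted p = 0.16, edgeR), and 0.27 with total counts, which passed (adjusted p = 0.0042, edgeR). MGA (ENSG00000174197, chromosome 15 from 41621224 to 41773081, plus strand), the scaffold of the PRC1.6 complex that silences germline genes, was at 122, 119.6 and 129 CPM in Control and at 128, 119.6 and 115 CPM with WNK463. Its log2 fold change was -0.03 (95% interval -0.15 to 0.08, adjusted p = 0.62, edgeR) and turned to 0.12 with total counts, and neither passed.

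Both genes of the MLX branch fell under TMM scaling. MLX (ENSG00000108788, chromosome 17 from 42567068 to 42573239, plus strand) was at 111, 113 and 118 CPM in Control and at 94.3, 95.9 and 95.9 CPM with WNK463, with no overlap and a log2 fold change of -0.25 (standard error 0.05, adjusted p = 2.4e-04, edgeR). MLXIP (ENSG00000175727, chromosome 12 from 122078722 to 122147347, plus strand) was at 97.4, 92.7 and 92.6 CPM in Control and at 83.2, 79.0 and 77.9 CPM with WNK463, also without overlap and with a log2 fold change of -0.24 (standard error 0.05, adjusted p = 8.1e-04, edgeR). Neither call held with total counts, where MLX was at -0.10 (adjusted p = 0.079, edgeR) and MLXIP at -0.08 (adjusted p = 0.16, edgeR).

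**Figure D2:**
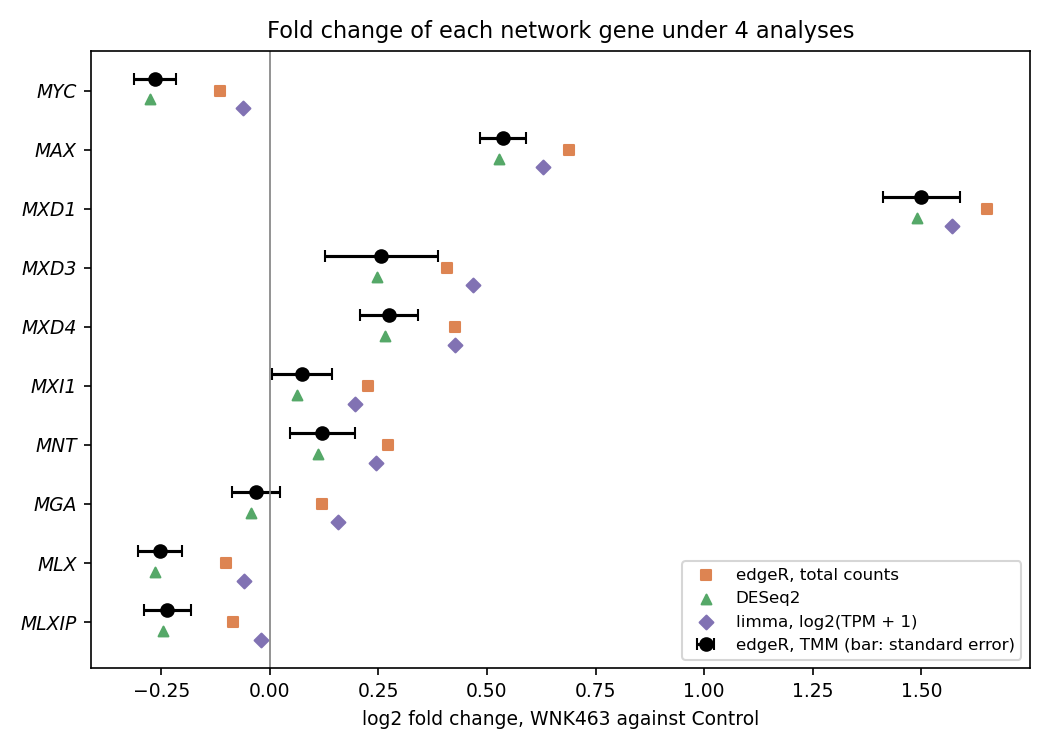
Log2 fold change of WNK463 against Control (horizontal axis) for the 10 network genes in 4 analyses. Black points are edgeR with TMM scaling and bars are their standard errors. MXD1, MAX, MXD4, MXD3, MXI1 and MNT stayed above 0 in all 4, of which MXD1, MAX and MXD4 passed in each. MYC, MLX and MLXIP moved toward 0 with total counts and TPM, and MGA changed sign.

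The paralogs outside the 10 genes were scarce. MYCN had 0 counts in all 6 samples. MYCL, another MYC paralog, was at 10.6, 8.64 and 10.9 CPM in Control and at 5.56, 4.88 and 4.40 CPM with WNK463. Its groups did not overlap and MYCL fell with a log2 fold change of -1.02 (standard error 0.15, adjusted p = 9.5e-06, edgeR). MLXIPL, the carbohydrate sensor ChREBP that also pairs with MLX, was at 3.60 to 5.69 CPM in Control and 3.90 to 4.05 CPM with WNK463, and its log2 fold change of -0.23 did not pass (adjusted p = 0.32, edgeR).

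Compared per length, MYC transcripts outnumbered those of every other network gene in both groups. In Control the TPM levels ran from MYC at 557 ± 22.8 through MAX at 120.3 ± 5.35, MLX at 89.6 ± 3.53, MXI1 at 57.0 ± 7.32 and MLXIP at 21.7 ± 0.707 to MGA, MXD4, MNT, MXD3 and finally MXD1 at 6.25 ± 0.879 (SD, n = 3). MGA and MXD4 overlapped in their sample ranges, as did MNT and MXD3, so their order was not resolved. With WNK463 the 4 most abundant genes kept their order, with MYC at 534 ± 23.8 TPM and MAX at 187 ± 7.61 TPM (SD, n = 3). MXD1 moved from last place to 20.5 ± 1.64 TPM, where its range overlapped that of MLXIP, and MNT became the lowest at 16.0 ± 0.172 TPM.

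The mixture of transcripts for MAX partners therefore shifted away from MYC. MYC made up 81.3 ± 0.926% of the summed TPM of MYC, the 4 MXD genes, MNT and MGA in Control and 76.1 ± 0.712% with WNK463, and the groups did not overlap (SD, n = 3 each, exact permutation p = 0.10). The share of MXD1 rose from 0.910 ± 0.10% to 2.92 ± 0.128% of the same sum. Shares of MXD3 and MXD4 were also higher in all treated samples, while those of MXI1, MNT and MGA overlapped. Within the MXD family, whose summed TPM went from 94.7 ± 7.98 to 129 ± 1.78, MXI1 remained the main transcript but its share went from 60.1 ± 2.56% to 50.5 ± 0.364%, and that of MXD1 went from 6.62 ± 1.02% to 15.9 ± 1.07%. Among the partners of MLX, which were MLXIP, MLXIPL, MXD1, MXD4 and MNT, MLXIP held 34.1 ± 2.36% of the summed TPM in Control and 24.6 ± 0.852% with WNK463, whereas MXD1 held 9.85 ± 1.61% and 23.6 ± 1.56%. That sum rose from 63.6 ± 3.26 to 86.7 ± 1.48 TPM, while MLXIP itself was at 21.7 ± 0.707 and 21.3 ± 0.980 TPM. The lower share of MXI1 likewise came with a larger sum, as its own level was 57.0 ± 7.32 TPM in Control and 65.1 ± 1.37 TPM with WNK463. The own level of MYC in TPM overlapped between the groups, at 531 to 571 in Control and 508 to 556 with WNK463. The summed TPM of the MAX partners overlapped as well, at 685 ± 29.6 in Control and 701 ± 25.8 with WNK463.

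**Figure D3:**
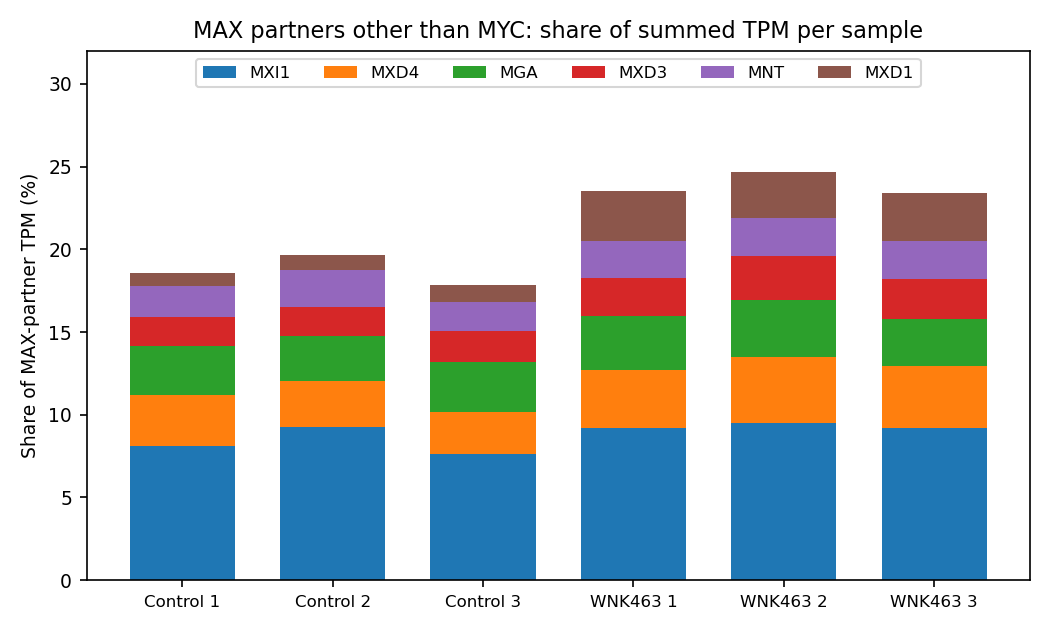
Share of the summed TPM of 7 MAX partners (vertical axis, percent) taken by the 6 partners other than MYC, stacked, in each of the 6 samples. The remainder up to the full sum is MYC, at 81.3% on average in Control and 76.1% with WNK463, and the MXD1 segment grew from 0.910% to 2.92%.

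A ratio of transcripts within a sample does not depend on how libraries are scaled. For each 100 MYC transcripts by TPM there were 21.5, 21.7 and 21.6 MAX transcripts in Control and 33.2, 38.4 and 33.5 with WNK463. The Control ratios were almost identical, and every treated ratio was higher, with a difference of 0.69 on the log2 scale (standard error 0.07). The MXD family went from 16.9, 18.3 and 15.8 to 23.6, 25.1 and 23.8 transcripts per 100 of MYC, a log2 difference of 0.51 (standard error 0.07), again without overlap. MNT and MGA together went from 6.0 to 7.20 per 100 of MYC, a log2 difference of 0.26 (standard error 0.06) without overlap. Each of these 3 ratios had an exact two-sided permutation p of 0.10, the smallest that the design allows and 0.13 after adjustment over the 4 ratios. MLXIP relative to MYC was at 3.90 per 100 in Control and 4.0 with WNK463, and these groups overlapped, with a log2 difference of 0.04 (standard error 0.08, exact permutation p = 0.50).

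**Figure D4:**
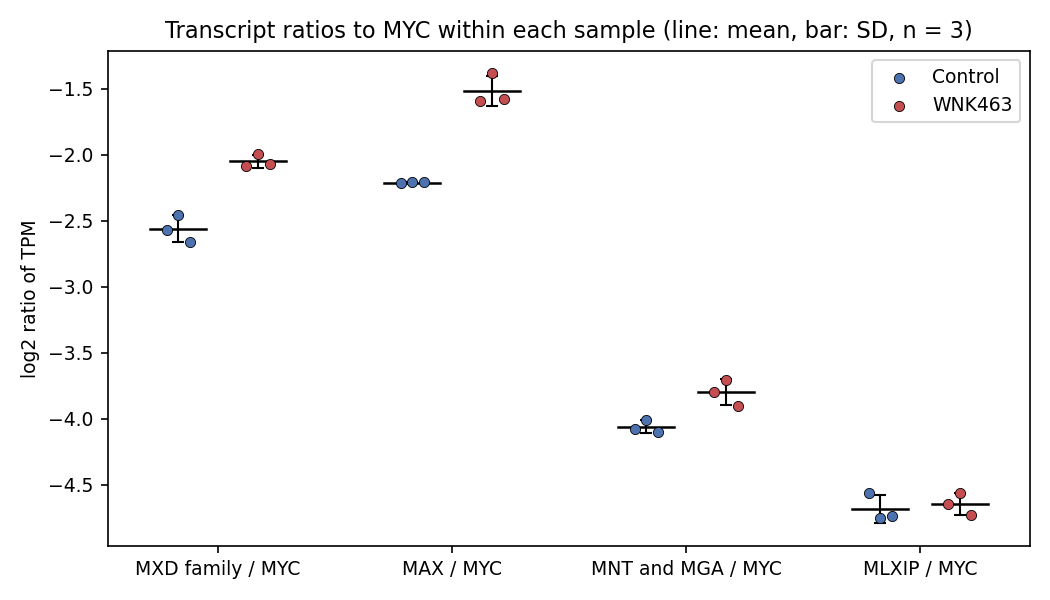
Log2 ratio of TPM to MYC in the same sample (vertical axis) for the summed MXD family, MAX, the sum of MNT and MGA, and MLXIP. Points are samples, lines are means and bars are SD (n = 3). The first 3 ratios were higher in every WNK463 sample than in any Control sample, and MLXIP overlapped.

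Genes that work with the network are described next by lists of known members, counted without a test of the list. The lists were chosen with earlier results of these data known. Their counts are to be read beside the 35.5% of all tested genes that rose and the 35.3% that fell. Of 14 MYC coactivators, 10 fell and 1 rose, with a median log2 fold change of -0.47. HCFC1, a chromatin cofactor that binds MYC, fell with a log2 fold change of -1.09, WDR5, which anchors MYC on chromatin, with -0.82, and RUVBL1, an ATPase of the TIP60 complex, with -0.89. KAT5, the acetyltransferase of that complex, had 0.13 and passed in edgeR (adjusted p = 0.035) but not in DESeq2 (adjusted p = 0.11), and CREBBP at -0.09, CDK9 at -0.10 and CCNT1 at 0.05 did not pass. Of 16 genes for MYC protein turnover, 6 rose and 7 fell. PIM1, a kinase that stabilises MYC, rose from between 92.0 and 103 CPM to between 209.9 and 221 CPM, a log2 fold change of 1.17, as did FBXO32, a ubiquitin ligase subunit, with 1.40, and PPP2R5A, a subunit of the phosphatase PP2A, with 0.44. AURKA, a kinase that protects MYC proteins, fell with -0.59, SKP2, a ubiquitin ligase subunit, with -0.73, and USP36, a nucleolar deubiquitinase, with -0.53, and HUWE1, USP28 and SET did not pass.

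The corepressors moved in both directions. Of 15 genes of the SIN3 and HDAC complex, which MXD proteins recruit, 5 rose and 7 fell, with a median of -0.03 that turned to 0.13 with total counts. ARID4B, SAP30 and ARID4A, subunits of the complex, rose with log2 fold changes of 0.70, 0.91 and 0.50. The histone chaperones RBBP7 and RBBP4 fell with -0.47 and -0.39, and the deacetylase HDAC1 with -0.39, while HDAC2, SAP18 and ING1 did not pass. Of 10 PRC1.6 partners of MGA, 4 rose and 4 fell, with a median of -0.08 that turned to 0.07 with total counts. RYBP, RNF2 and PCGF6, from the core of the complex, rose with 0.46, 0.45 and 0.37, and TFDP1, the partner of E2F6, fell with -0.97, L3MBTL2 with -0.64 and CBX1 with -0.28, a call that CBX1 lost with total counts (adjusted p = 0.085, edgeR). Of 12 germline genes under this complex, 4 were expressed enough to be tested. STAG3, a meiotic cohesin subunit, rose with 0.94, MEIOB had 0.54 and passed in edgeR (adjusted p = 0.020) but not in DESeq2 (adjusted p = 0.062), TDRKH fell with -0.61, and SMC1B at -0.33 did not pass.

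Genes that MYC is known to activate were mostly lower. Of 18 nucleolar and ribosome targets, 17 fell and 0 rose in edgeR, with a median of -0.60, and 16 fell with total counts. MYBBP1A, a regulator of ribosomal RNA synthesis, had a log2 fold change of -1.34, BOP1, a factor of the large ribosomal subunit, -1.12, and FBL, the methyltransferase fibrillarin, -1.02. RRP12 at -0.05 was the member that did not pass. Of 23 metabolic and growth targets, 19 fell and 1 rose, with a median of -0.76. LDHA, lactate dehydrogenase, had -1.25, PAICS, an enzyme of purine synthesis, -1.0, and IMPDH2, which makes guanine nucleotides, -1.10. CCND2 rose with 0.28, although PPAT, TFRC and EIF4E, all close to 0, did not pass. With total counts 18 of these targets fell and 4 rose. LDHA and HSPD1 have processed pseudogenes that could share their reads.

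TERT, the catalytic subunit of telomerase and a member of the metabolic and growth list, was named after its values were seen. It had 23, 10 and 15 counts in Control and 0, 1 and 0 with WNK463, in total 48 against 1. Adjusted for library size, Control was 50 times the treated level, with an exact counting interval of 8.56 to 2017 that covers counting error only and leaves out the spread between replicates.

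Proliferation genes moved with these targets. All 13 of that list fell under TMM scaling, with a median of -1.53, and 11 fell with total counts, where CCNB1 and CDK1 lost their calls. The smallest p-values belonged to the replication helicase genes MCM5, MCM4 and MCM2, with -2.38, -1.95 and -1.92. The summed level of all 13 genes of the list was 6370.0 to 6524 CPM in Control and 2766 to 2839 CPM with WNK463, with 0 members at 0 counts. Of the 7 leukemia identity genes, 3 rose and 3 fell, and SPI1 at 0.002 did not pass. CSF1R, HOXA9 and MEIS1 rose with 0.97, 0.72 and 0.33. MPO fell with -2.50, CD33 with -0.38 and FLT3 with -0.20, a call that FLT3 lost with total counts (adjusted p = 0.32, edgeR). Of 18 monocyte and macrophage genes, 13 were tested, 8 rose and 3 fell. C1QA, ITGAX and CSF1R rose with 3.69, 1.38 and 0.97. C1QA was low in Control, at a mean of 0.985 CPM, and CSF1R is also in the leukemia identity list. LYZ, which made up most of the summed level of the list in Control, fell with -2.22. TLR4 fell with -0.53 and CD68 with -0.14, a call that CD68 lost with total counts (adjusted p = 0.90, edgeR). MARCO at -0.27 and FCGR1A at -0.05 did not pass. The summed level of the list went from between 1667 and 1730 to between 664 and 709 CPM. The part of these shifts in the changes of MYC, MXD1 and the MYC targets was not tested.

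Genes known to be repressed by MYC were mostly higher. Of 7, 5 rose and 1 fell, with a median of 0.39. The cell cycle inhibitors CDKN1B, CDKN1A and CDKN2B rose with log2 fold changes of 1.17, 0.39 and 1.69. NDRG1, a stress and differentiation gene, fell with -1.25, and NDRG2 at 0.10 did not pass.

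All 5 targets of MLXIP and MLX rose, with a median of 0.54, although both transcripts fell under TMM scaling. TXNIP, which limits glucose uptake, was at 406, 384 and 399 CPM in Control and at 803, 796 and 822 CPM with WNK463. Each treated sample was far above each Control sample, with a log2 fold change of 1.03 (standard error 0.04, adjusted p = 1.1e-12, edgeR). ARRDC4, its relative, was at 14.86, 17.6 and 15.5 CPM in Control and at 35.5, 38.2 and 38.4 CPM with WNK463, a log2 fold change of 1.23 (standard error 0.08, adjusted p = 5.5e-10, edgeR). KLF10, a transcription factor, rose with 0.54. Of 7 other bHLH-ZIP factors that bind E-boxes, 5 rose and 1 fell, with a median of 0.33, but DESeq2 called 3 of them higher, as USF1 and MITF lost their calls. TFEC, TFE3 and TFEB, of the lysosomal and melanocyte family, rose with 0.56, 0.48 and 0.33, and TFAP4, itself a MYC target, fell with -0.61, and USF2 at 0.08 did not pass.

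**Figure D5:**
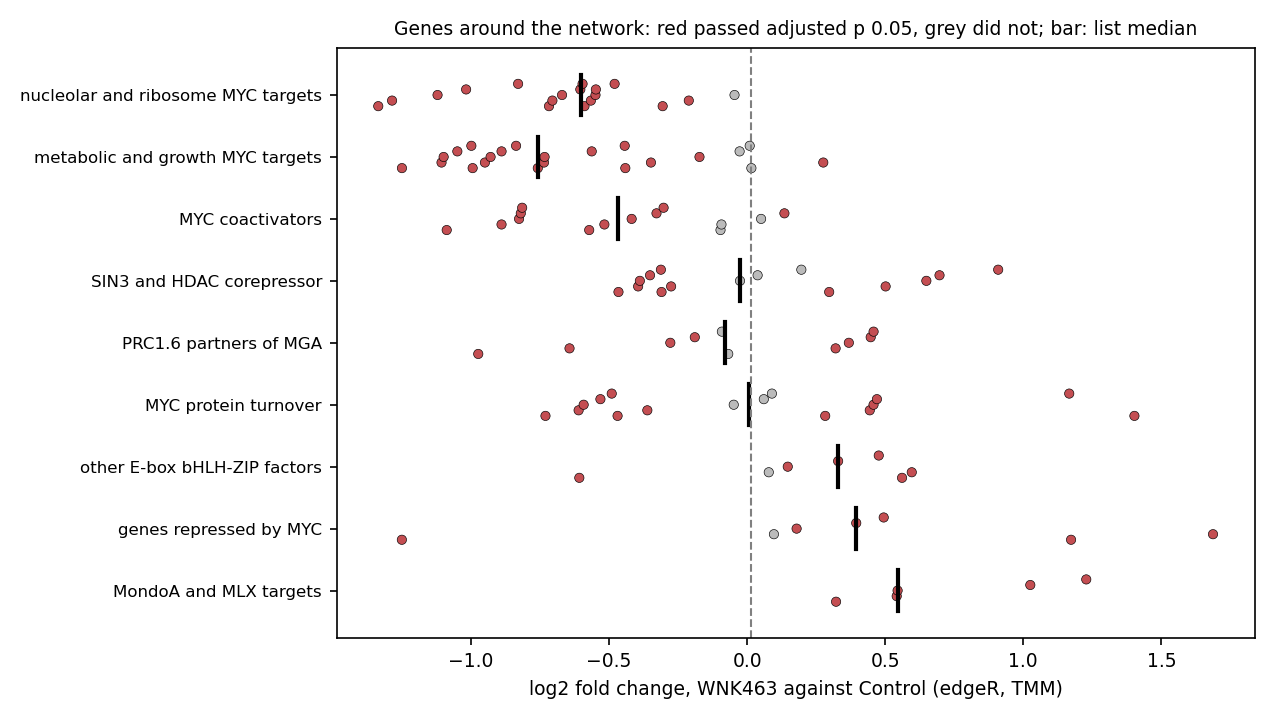
Log2 fold change of WNK463 against Control (horizontal axis, edgeR with TMM) of each tested gene in 9 lists around the network. Red points passed an adjusted p of 0.05 and grey points did not, black bars are list medians, the dashed line marks the median over the tested genes and TERT is left out of the drawing. The medians ran from -0.76 for metabolic and growth targets to 0.54 for targets of MLXIP and MLX.

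The E-box was then looked for in promoters, a search chosen after the expression values were seen. RefSeq windows of 250 bases before to 50 bases after the annotated start on GRCh38.p14 were searched for CACGTG, which reads the same on both strands. It occurred in 12.8% of the 9631 tested genes with a window and in 8.77% of all 27305 genes with a window. Counted by window, it was in 7.26% of all 35116. Of the 9 network genes with a window, 3 held it, namely MXD4, MNT and MLX. The network gene without a window was MYC, so the MYC promoter was not searched. It was found in 7 of 14 nucleolar and ribosome targets, in 12 of 19 metabolic and growth targets and in 3 of 4 targets of MLXIP and MLX, which were ARRDC4, HK2 and PFKFB3. Among the other lists the share varied. The motif was in 5 of 11 germline genes, 2 of 5 leukemia identity genes and 3 of 10 coactivators. It was in 3 of 10 turnover genes and 3 of 11 proliferation genes, but in 1 of 14 SIN3 and HDAC genes and 1 of 10 PRC1.6 partners. None was found in the 5 genes repressed by MYC, 13 monocyte and macrophage genes, 6 other bHLH-ZIP factors, 3 paralogs and 1 other-lineage marker with a window. The lists are small and the target lists were drawn from known targets, so these shares are a description. In 6 of the 7 nucleolar genes the match nearest to the start lay at or after it, compared with 4 of 12 metabolic and growth targets, 0 of 3 targets of MLXIP and MLX and 12.4% of the 2396 genes that held the motif.

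Windows of 30 bases around the match are shown for the network genes that hold it and for leading targets, so that the flanks can be compared. Each reads 5′ to 3′ on the strand of its gene, with the E-box in capitals.
MXD4 (chr4:2262330-2262359, minus strand): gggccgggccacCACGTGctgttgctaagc
MNT (chr17:2401236-2401265, minus strand): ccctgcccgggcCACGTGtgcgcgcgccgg
MLX (chr17:42567038-42567067, plus strand): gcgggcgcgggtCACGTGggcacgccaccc
ARRDC4 (chr15:97960481-97960510, plus strand): aaacggcctgtgCACGTGcacgccggagcc
MYBBP1A (chr17:4555340-4555369, minus strand): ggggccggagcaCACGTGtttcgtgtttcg
FBL (chr19:39846356-39846385, minus strand): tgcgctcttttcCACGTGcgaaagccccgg
MRTO4 (chr1:19251807-19251836, plus strand): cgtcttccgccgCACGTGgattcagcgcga
LDHA (chr11:18394464-18394493, plus strand): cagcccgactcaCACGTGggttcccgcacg
HSPD1 (chr2:197500345-197500374, minus strand): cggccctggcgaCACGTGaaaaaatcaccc

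Counted from the RefSeq start of its promoter window, the match shown began 238 bases before it in MXD4, 193 in MNT, 50 in MLX, 210 in ARRDC4, 87 in LDHA and 88 in HSPD1. LDHA had 2 matches and 2 promoter windows, and HSPD1 had 1 match and 2 promoter windows, and only 1 match is shown for each. The GENCODE 29 starts given above for the network genes differ from these, and from them the match lay 53 bases before the start in MXD4, 135 in MNT and 18 in MLX. In FBL, MRTO4 and MYBBP1A it began 6, 14 and 27 bases after the RefSeq start. Of the genes shown, MXD4 and ARRDC4 rose, MLX, MYBBP1A, FBL, MRTO4, LDHA and HSPD1 fell, and MNT did not pass the test, so genes with the same motif changed in both directions. Among all tested genes with a window, the motif was present in 12.4% of those that rose, in 14.3% of those that fell and in 11.6% of those that did not pass.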

How the data were processed

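RNA-seq of MV4-11 cells was compared between 3 Control and 3 WNK463 samples, grouped by their titles. The submitters' processing notes name fastp, Bowtie2, HISAT2, StringTie, RSEM, DESeq2 and edgeR and the build GRCh38, without roles or versions. The authors deposited an estimated count per gene and sample as whole numbers, and 62 values were 0 beside a TPM above 0, so these counts appear to be rounded. The deposited TPM values are scaled by the authors to transcript length and to a sum of 1000000 per sample. The authors' mean TPM, log2 fold change, FDR and p-value columns hold their own comparison and were not used.

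Counts were tested with edgeR 4.0.16 in R 4.3.3 (TMM, filterByExpr at its defaults, quasi-likelihood test with group as the only term, Benjamini-Hochberg adjustment over 11973 genes). Standard errors were derived from the log2 fold change and its F statistic, and 95% intervals use the total (residual and prior) degrees of freedom of the fit. The variation between replicates was 5.21%, and replicates differed beyond sampling noise in every pair (chi-square per degree of freedom 2.66 to 7.42). Ratios and shares of TPM were compared with exact two-sided permutation tests over samples. Alternatives were DESeq2 1.42.0, total counts, upper-quartile and RLE factors (both added after the data were seen), other filters, the replicate number as a block, limma 3.58.1 on log2(TPM + 1) and log2(TPM + 0.1) with and without a filter of 1 TPM in 3 samples, and each sample left out. The procedure was tested on simulated data with known changes. It missed mainly genes with low counts, its false calls were somewhat above the nominal share, and the criterion for passing was loosened after earlier versions of it had failed.

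The members and gene lists were chosen with earlier results of these data known. Named genes are the 10 network genes, up to 3 genes of each list per direction with the smallest p, the members that did not pass where 3 or fewer did not, MLXIPL, MYCN, MYCL, TXNIP and ARRDC4, and the 3 genes nearest to MYC. TERT and the genes whose promoters are shown were named after their values were seen, as were the promoter search and the length of the windows shown. Gene positions are from GENCODE 29 (10 of 10 identifiers matched) and promoters from RefSeq on GRCh38.p14.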

Additional observations from a re-analysis of the deposited data

How the results depend on the processing

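The rises of MXD1, MAX and MXD4 kept their direction and their side of the threshold under all 16 alternatives run for each, with log2 fold changes of 1.40 to 1.70, 0.49 to 0.69 and 0.22 to 0.44. With a limit on the fold change, 1817 genes and 1 network gene were called in place of 8473 and 6. MYC lost its call with limma on TPM, at -0.06 under each of the 3 settings of pseudocount and filter. MLX lost its call with total counts at -0.10 and with limma at -0.060 (-0.061 with the pseudocount of 0.1), and so did MLXIP at -0.084 and -0.021 (-0.022 with that pseudocount). Other settings added calls. MXD3 passed with total counts at 0.41, with limma at 0.47, or 0.50 with the pseudocount of 0.1, and with upper-quartile factors at 0.34. MXI1 passed with total counts at 0.23 and upper-quartile factors at 0.16, and MNT at 0.27 and 0.21. MGA, which passed under no setting, changed sign with total counts at 0.12, with limma at 0.16 (0.163 with the pseudocount of 0.1) and with upper-quartile factors at 0.055. For the scalings, the cause shown is the shift of the median of all genes, by 0.15 with total counts and 0.087 with upper-quartile factors, and limma on TPM moved it by 0.15 and the share of higher calls to 65.2%. For TPM against counts the cause beyond this shift was not tested.

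With each sample left out in turn, MXI1 ranged from -0.0055 to 0.11 and MGA from -0.079 to 0.0011, with the sign changing without Control replicate 1 for MXI1 and without WNK463 replicate 3 for MGA. The 6 calls held in all 6 of these fits. The log2 ratio of MLXIP to MYC ranged from -0.0029 to 0.10, and was below 0 without WNK463 replicate 2. From deposited counts in place of TPM, the log2 ratio of the MXD family to MYC was 0.75.

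The replicate numbers did not pair the samples, since the correlations of same-numbered samples' deviations were 0.03, -0.03 and -0.05. With the replicate block, 8398 genes passed and no call of a network gene changed. Within pairs the smallest p of a ratio is 0.25, so the block could not test the ratios. Of the counts of calls in lists, 6 moved by over 1.5 times, each by 1 to 3 genes. In the germline list, 8 of 12 genes were below the filter on low counts and 4 of the 12 had 0 counts in all 6 samples, whereas DESeq2 tested 8 of the 12.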
